A study of Mus musculus with 12 samples.

Results

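The genes described here are 10 markers of neural stem cells and radial glia: the transcription factor genes Sox1, Sox2, Sox3 and Sox21, the intermediate filament genes Nes and Vim, and Fabp7, Slc1a3, Msi1 and Prom1. They were taken by name, and every probe set that the array's annotation assigns to a single one of these symbols was kept, whatever its values. This gave 24 probe sets of 10 genes, out of 45037 probe sets and 18193 named genes tested. Slc1a3 had 6 probe sets, Nes, Vim and Msi1 had 3 each, Sox1, Sox3 and Sox21 had 2 each, and Sox2, Fabp7 and Prom1 had 1 each.

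RNA was measured on 12 Affymetrix arrays from mouse embryonic stem (ES) cells that were differentiated as a monolayer in N2B27, a serum-free medium in which ES cells turn into neural progenitors and then neurons. The rtTA-Dmrt5 line carries a tetracycline-inducible Dmrt5, which doxycycline (Dox) switches on through the rtTA activator, and the parental rtTA line is its control. Dmrt5 is another name of Dmrta2, a DM-domain transcription factor of the developing cortex and midbrain. There were 6 groups of 2 arrays: rtTA-Dmrt5 at day 7 with Dox from day 5 and without it, rtTA-Dmrt5 at day 9 with Dox from day 5 and without it, and rtTA at day 7 with Dox from day 5 and without it. All cells, controls included, carry rtTA, and the parental line was measured at day 7 alone. The promoter that drives rtTA, and whether rtTA-Dmrt5 is a single clone, are not stated in the labels used here. No label states that the 2 replicates of a group were separate cultures, and the p-values then cover only the spread among these samples, which may be technical.

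Neural stem cells of the early neural tube are neuroepithelial cells that divide at the inner surface, and they turn into radial glia, which make most neurons and later glia. Sox1, Sox2 and Sox3 form the SoxB1 group of HMG-box factors, which keep these cells as progenitors, while Sox21, of the SoxB2 group, acts mainly as a repressor and in chick promotes neuronal differentiation. Nestin (Nes) and vimentin (Vim) form the progenitors' filaments, and Fabp7 (brain lipid-binding protein) and Slc1a3 (the glutamate transporter GLAST) come up as neuroepithelium turns into radial glia. Several of these genes are also used by other cells: Sox2 is needed by undifferentiated ES cells, and Vim is abundant in mesenchyme.

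Each deposited value is the log2 signal of a probe set minus its own median over the 12 arrays. Values can be compared between arrays but not between genes, and they carry no level, apart from a coarse class of the median log2 signal that could be read from the number format. Of the 24 probe sets, 13 had a median log2 signal of at least 8, 6 of 4 to 8 and 5 of 2 to 4. At least 1 probe set of every gene was in the brightest class. Changes below are log2 differences ± SE (standard error), fitted with limma from 2 arrays a group, and a change is said to rise or fall where the Benjamini-Hochberg adjusted p over 45037 probe sets was under 0.05. In such bulk samples, fewer cells of a type and less RNA per cell cannot be told apart.

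Dmrta2, the induced gene, was examined first, and its probe set went against the labels. It had values of -0.14 and -0.95 in the rtTA-Dmrt5 arrays labelled +Dox at day 7, against 1.91 and 1.85 in those labelled -Dox. At day 9 it had -1.07 and -1.92 in arrays labelled +Dox, against 1.07 and 1.16 in those labelled -Dox. The arrays labelled +Dox were thus lower at both days, by -2.42 ± 0.33 (adjusted p = 0.00318) and -2.61 ± 0.33 (adjusted p = 0.000823), with no overlap. The parental group means lay between, with values of 0.41 and -0.28 labelled +Dox against -0.22 and 0.14 labelled -Dox, a change of 0.10 ± 0.33 (adjusted p = 0.989). Single arrays overlapped at day 7, where the -0.14 of an rtTA-Dmrt5 array labelled +Dox was above the parental -0.28 and -0.22. The rtTA-Dmrt5 day 7 arrays labelled -Dox were above the parental ones labelled -Dox by 1.92 ± 0.33 (adjusted p = 0.00323). Whether the Dox labels of the rtTA-Dmrt5 arrays are exchanged was not tested. Whether this probe set reads a part that the transgene holds is not stated in the labels used here. For this reason the groups are named by their label, +Dox or -Dox, and the direction of each Dox response, and the choice of arrays in each comparison of the lines, is only as sure as that label. Apart from this, the day 9 arrays labelled +Dox stood apart in control signals: their 18 hybridisation controls averaged -0.79 and -0.66, against 0.01 and 0.17 in those labelled -Dox, and their Actb 3' minus 5' differences were 0.23 and 0.20, against 0.00 and -0.05. Actb differences were -0.13 to 0.07 in the rtTA-Dmrt5 day 7 arrays, against -0.37 to -0.20 in the 4 parental arrays, the lowest of the 12. The part of these shifts in the day 9 results and in the comparisons of the lines was not tested.

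At day 7 in rtTA-Dmrt5 cells, the markers split. Sox21 and Fabp7 fell several-fold in the arrays labelled +Dox, Sox2, Sox3 and Vim fell by smaller amounts, Slc1a3 rose, and Nes was higher without passing the test. In all, 9 of 24 probe sets passed, 3 higher and 6 lower, where 3.05% of all 45037 probe sets passed, 1.26% higher and 1.79% lower. Among probe sets with a median log2 signal of at least 4, where 19 of the 24 lie, 4.65% passed. Counted by gene, 1 gene rose, 5 fell and 4 (Sox1, Nes, Msi1 and Prom1) had no probe set past the threshold. The median change over the 24 probe sets was 0.04, against 0.01 over all probe sets, with both rises and falls among the 24.

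**Figure D1:**
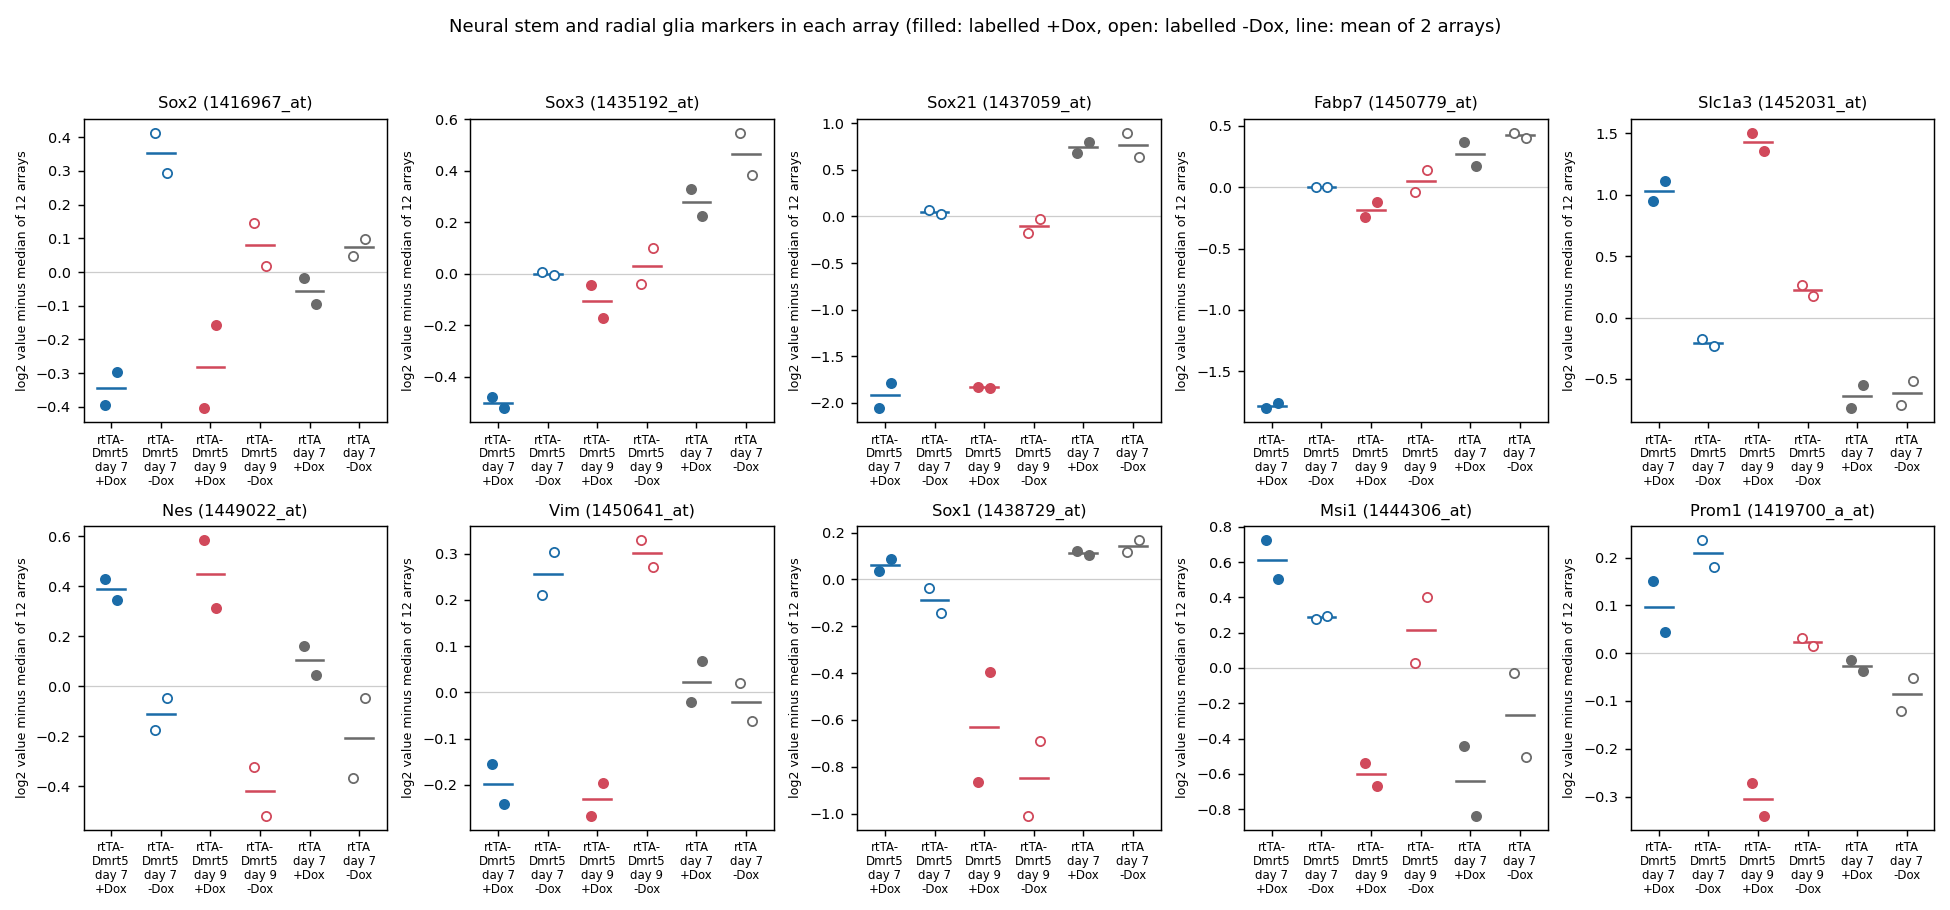
Deposited log2 value minus the probe set's median over 12 arrays (y axis, own scale in each panel) for 1 probe set of each of the 10 genes, the one with the smallest adjusted p over the comparisons, in 6 groups (x axis); filled points are arrays labelled +Dox, open points arrays labelled -Dox, lines the mean of 2 arrays. Sox21 lies near -1.92 and -1.83 (group means) in rtTA-Dmrt5 arrays labelled +Dox at day 7 and day 9, while Fabp7 is that low at day 7 alone.

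Sox21, the SoxB2 repressor, gave the largest fall of the 24. Its probe set 1437059_at, of the brightest class, had -2.06 and -1.78 at day 7 in arrays labelled +Dox, against 0.07 and 0.03 in those labelled -Dox. At day 9 the values were -1.83 and -1.84 in arrays labelled +Dox, against -0.18 and -0.03 in those labelled -Dox. All 4 arrays labelled +Dox lay far below all 4 labelled -Dox. The fall was -1.97 ± 0.13 at day 7, or 3.92-fold (adjusted p = 8.2e-05), and -1.73 ± 0.13 at day 9, or 3.32-fold (adjusted p = 6.71e-05). The other probe set, 1451835_at, fell by 1.35 ± 0.23 (adjusted p = 0.0122) and by 1.63 ± 0.23 (adjusted p = 0.00154), and both tracked each other over the 12 arrays (r = 0.97, a description over arrays that share groups). Its day 7 call was lost without replicate 1 of the arrays labelled +Dox or replicate 1 of those labelled -Dox, with an adjusted p of up to 0.1 over the alternatives tried. The difference between the day 9 and the day 7 response was 0.24 ± 0.19 for 1437059_at (adjusted p = 0.612).

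In parental cells Sox21 1437059_at had 0.68 and 0.80 in arrays labelled +Dox, against 0.90 and 0.63 in those labelled -Dox, which overlap. The parental change was -0.03 ± 0.13 (adjusted p = 0.995), and the difference between the responses of the lines was -1.94 ± 0.19 (adjusted p = 0.00188). On 1451835_at that difference was -1.11 ± 0.33 and did not pass (adjusted p = 0.192). Among the day 7 arrays labelled -Dox, rtTA-Dmrt5 was lower than rtTA by -0.72 ± 0.13 (adjusted p = 0.00469) on 1437059_at and by -1.13 ± 0.23 (adjusted p = 0.00809) on 1451835_at. These arrays are those in which Dmrta2 was high. The rtTA-Dmrt5 day 7 arrays labelled +Dox averaged -1.92 on 1437059_at, farther below the 0.77 of the rtTA arrays labelled -Dox. Sox21 therefore lay in 3 tiers, with the 4 parental arrays at the top, the rtTA-Dmrt5 arrays labelled -Dox in the middle and those labelled +Dox at the bottom. Within a tier, the change between day 9 and day 7 did not pass. It was -0.15 ± 0.13 in arrays labelled -Dox (adjusted p = 0.579) and 0.08 ± 0.13 in those labelled +Dox (adjusted p = 0.763). The arrays labelled -Dox did not overlap between the days, those labelled +Dox did.

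Fabp7, the radial glial fatty acid binding protein and a target of Notch signalling, fell at day 7 and not at day 9. Its single probe set had -1.80 and -1.76 in day 7 arrays labelled +Dox, against -0.00 and 0.00 in those labelled -Dox. At day 9 it had -0.24 and -0.12 in arrays labelled +Dox, against -0.04 and 0.14 in those labelled -Dox. Only the 2 day 7 arrays labelled +Dox were far from the rest. The day 7 fall was -1.78 ± 0.11, or 3.43-fold (adjusted p = 6.02e-05), and the day 9 change was -0.23 ± 0.11 (adjusted p = 0.188). The 2 responses differed by 1.55 ± 0.16 (adjusted p = 0.00807), the single member probe set of 24 to pass this test, where 0.639% of all probe sets passed, 0.324% with a higher and 0.315% with a lower value at day 9. Between day 9 and day 7, Fabp7 was higher by 1.60 ± 0.11 in arrays labelled +Dox (adjusted p = 0.000113) and by 0.05 ± 0.11 in those labelled -Dox (adjusted p = 0.861). The call on the difference between days was lost without replicate 1 of the day 7 arrays labelled +Dox and without replicate 1 of those labelled -Dox, with values of 1.46 to 1.63 over the alternatives tried.

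Parental cells had Fabp7 values of 0.37 and 0.17 in arrays labelled +Dox, against 0.45 and 0.40 in those labelled -Dox. That change was -0.15 ± 0.11 (adjusted p = 0.947), and the lines' responses differed by -1.62 ± 0.16 (adjusted p = 0.00188). Among arrays labelled -Dox, rtTA-Dmrt5 was lower than rtTA by -0.42 ± 0.11 (adjusted p = 0.0268), a call lost without any of the 4 arrays compared (adjusted p of up to 0.129 over the alternatives).

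Slc1a3, which clears glutamate from around cells, moved the other way from Fabp7. Its brightest probe set, 1452031_at, had 0.95 and 1.11 in day 7 arrays labelled +Dox, against -0.18 and -0.23 in those labelled -Dox. At day 9 it had 1.51 and 1.36 in arrays labelled +Dox, against 0.26 and 0.18 in those labelled -Dox. The arrays labelled +Dox were above those labelled -Dox at both days. The rise was 1.24 ± 0.12 at day 7, or 2.35-fold (adjusted p = 0.000526), and 1.21 ± 0.12 at day 9, or 2.32-fold (adjusted p = 0.000294), and the difference between days was -0.02 ± 0.17 (adjusted p = 0.969). The parental arrays were the lowest of all, with -0.74 and -0.55 labelled +Dox against -0.72 and -0.52 labelled -Dox. Their change was -0.03 ± 0.12 (adjusted p = 0.995), and the lines' responses differed by 1.26 ± 0.17 (adjusted p = 0.00857), a call lost without replicate 2 of the rtTA-Dmrt5 day 7 arrays labelled +Dox or replicate 2 of those labelled -Dox (adjusted p of up to 0.0521 over the alternatives).

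The 6 Slc1a3 probe sets did not all respond alike. The 2 dim ones that rose, with a median log2 signal of 2 to 4, did so at both days, 1440491_at by 1.58 ± 0.22 (adjusted p = 0.00352) and 1.26 ± 0.22 (adjusted p = 0.00392), and 1426340_at by 1.49 ± 0.31 (adjusted p = 0.0323) and 1.94 ± 0.31 (adjusted p = 0.00267). The other 3 changed by 0.07, 0.40 and 0.46 at day 7 and 0.34, 0.18 and 0.28 at day 9, with adjusted p from 0.124 to 0.936. Over the mean of all 6, Slc1a3 rose by 0.87 ± 0.13 at each day (adjusted p = 0.00282 and 0.00101). The day 7 call of 1426340_at was lost without any of the 4 arrays compared (adjusted p of up to 0.232 over the alternatives). For 1440491_at the lines' responses also differed, by 1.92 ± 0.31 (adjusted p = 0.02), a call lost without any of 6 of the 8 day 7 arrays (adjusted p of up to 0.0877 over the alternatives); the exceptions were replicate 1 of the arrays labelled +Dox in each line. Among arrays labelled -Dox, rtTA-Dmrt5 was above rtTA on 1452031_at by 0.41 ± 0.12 (adjusted p = 0.0418), which passed under 1 of 9 alternatives, and over the mean of the 6 probe sets the difference was -0.04 (adjusted p = 0.851).

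To show what lies upstream of the 3 genes with the largest Dox responses, Sox21, Fabp7 and Slc1a3, and of Sox2, a SoxB1 factor that fell, the 250 bases before their start are printed from RefSeq (GRCm38.p6), on the gene's own strand. They were searched on both strands for short strings. ACAAAG is a core of SOX sites, and so is ACAATG in many of them. DMRT sites hold the string ACAATGT, which includes the second SOX string. RBPJ, the DNA-binding partner of Notch, reads TGGGAA, and the octamer of POU factors is ATGCAAAT. Capitals mark a match.
Sox21, chr14:118237031-118237280, minus strand: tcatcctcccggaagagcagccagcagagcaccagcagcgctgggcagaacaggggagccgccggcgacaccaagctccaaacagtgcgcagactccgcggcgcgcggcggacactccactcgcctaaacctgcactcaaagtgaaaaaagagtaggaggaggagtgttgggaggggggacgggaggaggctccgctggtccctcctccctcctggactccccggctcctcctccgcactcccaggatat
Sox2, chr3:34649745-34649994, plus strand: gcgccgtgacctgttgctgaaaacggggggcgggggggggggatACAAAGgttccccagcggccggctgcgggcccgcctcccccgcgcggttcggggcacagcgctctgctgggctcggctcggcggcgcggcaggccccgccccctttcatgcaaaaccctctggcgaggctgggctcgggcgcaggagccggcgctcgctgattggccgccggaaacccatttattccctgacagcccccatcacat
Fabp7, chr10:57784673-57784922, plus strand: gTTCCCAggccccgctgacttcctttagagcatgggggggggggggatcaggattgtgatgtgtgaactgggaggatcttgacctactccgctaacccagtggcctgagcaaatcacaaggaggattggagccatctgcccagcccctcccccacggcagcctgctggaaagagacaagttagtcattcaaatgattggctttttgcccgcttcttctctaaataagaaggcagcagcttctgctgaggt
Slc1a3, chr15:8710808-8711057, minus strand: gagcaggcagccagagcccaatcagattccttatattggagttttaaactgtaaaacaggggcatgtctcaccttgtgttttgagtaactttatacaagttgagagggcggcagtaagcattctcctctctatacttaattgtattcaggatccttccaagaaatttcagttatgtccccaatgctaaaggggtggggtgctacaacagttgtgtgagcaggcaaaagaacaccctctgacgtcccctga
Sox2 holds ACAAAG at position -206 from its start, letters that 16.5% of 32851 RefSeq promoters of this length hold. Fabp7 holds TGGGAA on the other strand at -249, as 21.6% of promoters do. No match was found in the windows of Sox21 and Slc1a3, and over all promoters the second SOX string occurs in 10.7%, the DMRT string in 2.56% and the octamer in 1.6%. The 4 windows differ in base composition, with 65.2% G and C in Sox21, 72% in Sox2, 54.8% in Fabp7 and 44.8% in Slc1a3, against a median of 52.4%. In all, 8 of the 10 genes matched this table; Sox3 and Msi1 were not analysed here.

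Among the SoxB1 factors, Sox2 fell at day 7. It had -0.39 and -0.30 in arrays labelled +Dox, against 0.41 and 0.29 in those labelled -Dox, and -0.40 and -0.16 against 0.15 and 0.02 at day 9. The groups did not overlap at either day. Sox2 thus changed by -0.70 ± 0.12 at day 7, or 1.62-fold lower (adjusted p = 0.0106), and by -0.36 ± 0.12 at day 9 (adjusted p = 0.0577). At day 9 it passed with dim probe sets left out (adjusted p = 0.029), over gene means (adjusted p = 0.0304) and without replicate 2 of the arrays labelled +Dox (-0.49, adjusted p = 0.0316). The day 7 call was lost without any of the 4 arrays compared (adjusted p of up to 0.0941 over the alternatives). In parental cells the change was -0.13 ± 0.12 (adjusted p = 0.948), and the lines' responses differed by -0.57 ± 0.16 (adjusted p = 0.181), which did not pass.

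Sox3 and Sox1 changed less. On its bright probe set 1435192_at, Sox3 had -0.48 and -0.52 in day 7 arrays labelled +Dox, against 0.01 and -0.01 in those labelled -Dox, a fall of 0.50 ± 0.11 (adjusted p = 0.039). At day 9 the values were -0.04 and -0.17, against -0.04 and 0.10, and the change was -0.14 ± 0.11 (adjusted p = 0.434). The dim probe set 1450485_at pointed the other way at day 7 (0.36 ± 0.18, adjusted p = 0.397), the 2 did not track each other over the 12 arrays (r = -0.08), and the mean of both changed by -0.07 (adjusted p = 0.817). The Sox3 call was also lost without any of the 4 arrays compared. Parental arrays were the highest for Sox3 1435192_at, at 0.33 and 0.22 labelled +Dox and 0.55 and 0.38 labelled -Dox, and rtTA-Dmrt5 was lower than rtTA among arrays labelled -Dox by -0.47 ± 0.11 (adjusted p = 0.0149), a call lost without replicate 1 of the rtTA arrays or either rtTA-Dmrt5 array.

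Sox1, the most neural-specific SoxB1 gene, was lower at day 9 than at day 7 under both Dox labels on its bright probe set. Its bright probe set 1438729_at had -0.86 and -0.40 in day 9 arrays labelled +Dox, against 0.04 and 0.09 in the day 7 ones. In arrays labelled -Dox it had -1.01 and -0.69 at day 9, against -0.04 and -0.14 at day 7. All 4 day 9 arrays were below all 8 day 7 arrays, parental ones included. The day 9 minus day 7 change was -0.69 ± 0.16 in arrays labelled +Dox (adjusted p = 0.0246) and -0.76 ± 0.16 in those labelled -Dox (adjusted p = 0.0179), and each call was lost without either day 7 array or replicate 1 of the day 9 arrays (adjusted p over the alternatives of up to 0.134 for +Dox and 0.127 for -Dox). Its response to Dox at day 7 was 0.15 ± 0.16 (adjusted p = 0.743), and at day 9 it was 0.22 ± 0.16 (adjusted p = 0.385). The dim probe set 1422205_at changed between the days by -0.33 in arrays labelled +Dox and -0.14 in those labelled -Dox (adjusted p = 0.494 and 0.822). Over the mean of both probe sets neither change passed, at -0.51 labelled +Dox (adjusted p = 0.0764) and -0.45 labelled -Dox (adjusted p = 0.117). Both calls on 1438729_at were also lost with only the groups compared fitted.

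**Figure D2:**
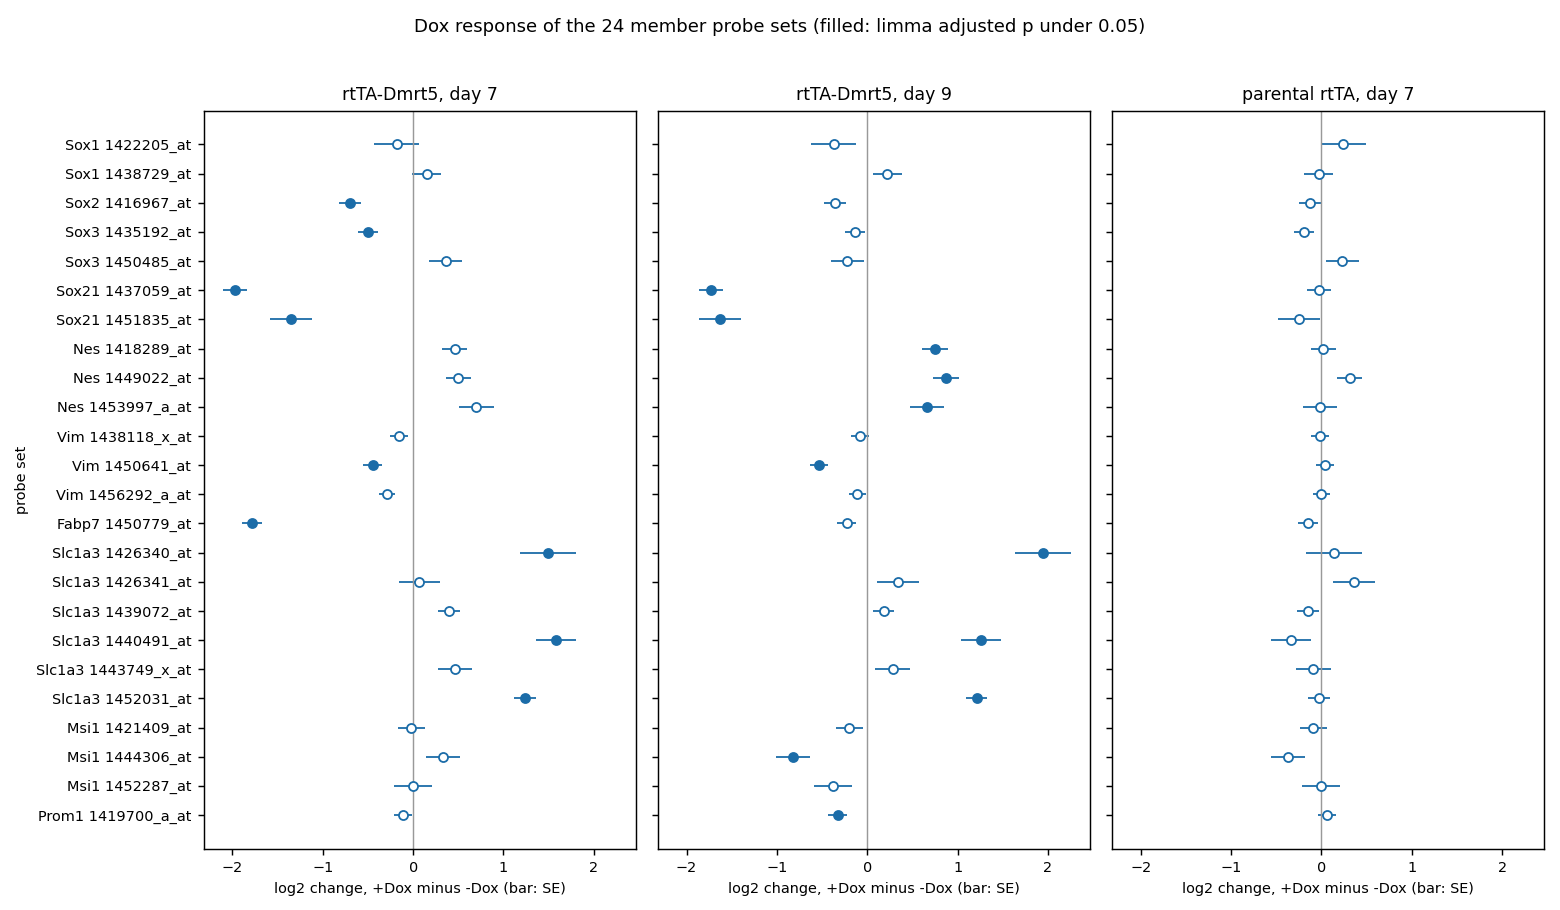
Log2 change, arrays labelled +Dox minus those labelled -Dox (x axis, bar: SE), of all 24 member probe sets (y axis) in rtTA-Dmrt5 cells at day 7 and day 9 and in parental rtTA cells at day 7; filled points passed adjusted p 0.05. There are 9 filled points at day 7, 11 at day 9 and 0 in the parental line, where all changes lie between -0.37 and 0.36.

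At day 9 in rtTA-Dmrt5 cells, Sox21 and Slc1a3 kept the direction they had at day 7, all 3 Nes probe sets rose, and falls passed for Vim, Msi1 and Prom1. Of the 24 probe sets 11 passed, 6 higher and 5 lower, where 18.3% of all probe sets passed, 10.3% higher and 7.95% lower. Of probe sets with a median log2 signal of at least 4, 26.3% passed. By gene, 2 rose, 4 fell and 4 (Sox1, Sox2, Sox3 and Fabp7) had none past the threshold. The median change was -0.12 over the 24 and -0.02 over all probe sets.

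Nes, a filament gene widely used to mark neural stem cells, rose at day 9. Its bright probe set 1449022_at had 0.59 and 0.31 in day 9 arrays labelled +Dox, against -0.32 and -0.52 in those labelled -Dox. At day 7 the values were 0.43 and 0.35, against -0.17 and -0.05. The groups were separate at both days, and the rtTA-Dmrt5 arrays labelled +Dox were the 4 highest of the 12. The day 9 rise was 0.87 ± 0.14, or 1.83-fold (adjusted p = 0.00321), while 1418289_at rose by 0.75 ± 0.14 (adjusted p = 0.00584) and 1453997_a_at by 0.66 ± 0.19 (adjusted p = 0.0397). The last of these calls was lost without 3 of the 4 arrays compared, replicate 2 of those labelled +Dox being the exception (adjusted p of up to 0.237 over the alternatives). At day 7 the 3 changes were 0.46 ± 0.14, 0.50 ± 0.14 and 0.70 ± 0.19, with adjusted p of 0.135, 0.114 and 0.0948. All 3 passed at day 7 when the arrays were quantile normalized again (adjusted p = 0.0467, 0.0387 and 0.0264), and so did the mean of the 3 (0.55 ± 0.13, adjusted p = 0.0387). The same normalization lost the day 9 call of 1453997_a_at. That call was also lost with the replicate number as a block and with only the groups compared fitted. The differences between days were -0.04 to 0.37, with adjusted p from 0.442 to 0.964, so the day 9 response was not shown to be larger. In parental cells the changes were -0.02 to 0.31 (adjusted p from 0.947 to 0.996), and the lines' responses differed by 0.19 to 0.72 (adjusted p from 0.313 to 0.774). Among day 7 arrays labelled -Dox, 1453997_a_at was lower in rtTA-Dmrt5 than in rtTA by -0.63 ± 0.19 (adjusted p = 0.0453), a call lost without any of the 4 arrays compared (adjusted p of up to 0.176 over the alternatives).

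Vim went down a little on 1 of its 3 probe sets, all of the brightest class. On 1450641_at it had -0.16 and -0.24 in day 7 arrays labelled +Dox, against 0.21 and 0.30 in those labelled -Dox, and -0.27 and -0.20 against 0.33 and 0.27 at day 9. The arrays labelled +Dox were the 4 lowest of the 12. At day 7 the fall was -0.45 ± 0.10 (adjusted p = 0.041), and at day 9 it was -0.53 ± 0.10 (adjusted p = 0.00594). On 1456292_a_at and 1438118_x_at the changes were -0.29 and -0.16 at day 7 and -0.11 and -0.08 at day 9, with adjusted p from 0.152 to 0.617. The mean of the 3 did not pass (-0.30, adjusted p = 0.0574 at day 7 and -0.24, adjusted p = 0.0541 at day 9), and the day 7 call on 1450641_at was lost without any of the 4 arrays compared (adjusted p of up to 0.266 over the alternatives).

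Msi1, an RNA-binding protein that in progenitors represses the Notch inhibitor Numb, fell at day 9 on 1 of 3 probe sets. On 1444306_at, with a median log2 signal of 4 to 8, it had -0.54 and -0.67 in day 9 arrays labelled +Dox, against 0.03 and 0.40 in those labelled -Dox. At day 7 the arrays labelled +Dox had 0.72 and 0.50, against 0.28 and 0.29, so they were the higher ones there. At day 9 it changed by -0.82 ± 0.19 (adjusted p = 0.0171) and at day 7 by 0.33 ± 0.19 (adjusted p = 0.492), and their difference of -1.15 ± 0.27 did not pass (adjusted p = 0.103). Between the days it fell by 1.21 ± 0.19 in arrays labelled +Dox (adjusted p = 0.0048) and changed by -0.07 ± 0.19 in those labelled -Dox (adjusted p = 0.893). The day 9 call was lost without either array labelled +Dox or replicate 2 of those labelled -Dox (adjusted p of up to 0.106 over the alternatives). On the brightest probe set, 1452287_at, the 2 day 9 arrays labelled +Dox disagreed, at -0.72 and 0.10, against 0.03 and 0.11 labelled -Dox. Its change of -0.38 ± 0.21 (adjusted p = 0.258) became -0.78 (adjusted p = 0.00674) without replicate 2 of the arrays labelled +Dox. The third, 1421409_at, changed by -0.20 ± 0.15 (adjusted p = 0.385).

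Prom1 encodes prominin, a membrane protein of the progenitors' apical protrusions. It had -0.27 and -0.34 in day 9 arrays labelled +Dox, against 0.03 and 0.01 in those labelled -Dox, and 0.15 and 0.04 against 0.24 and 0.18 at day 7. The day 9 arrays labelled +Dox were the 2 lowest of the 12. Prom1 changed by -0.33 ± 0.10 at day 9 (adjusted p = 0.0411), by -0.11 ± 0.10 at day 7 (adjusted p = 0.671), and between the days by -0.40 ± 0.10 in arrays labelled +Dox (adjusted p = 0.0292). Both calls were lost without any of the 4 arrays each compared (adjusted p over the alternatives of up to 0.183 for the Dox response and 0.177 between the days).

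**Figure D3:**
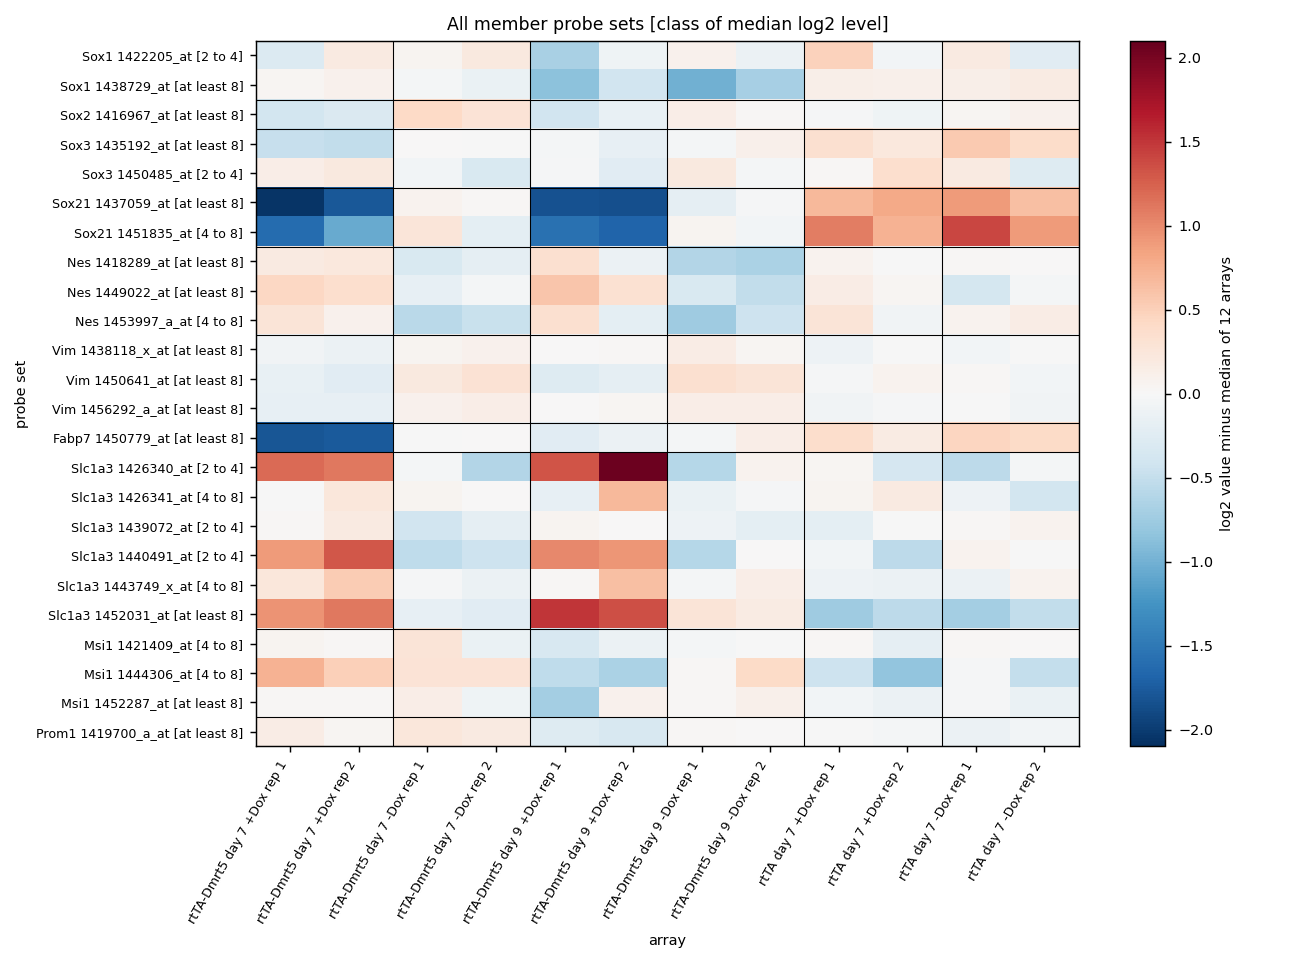
Heat map of the deposited log2 value minus the probe set's median over 12 arrays (colour, red higher and blue lower) for all 24 member probe sets (rows, with the class of the median log2 signal) in the 12 arrays (columns, by group). Blue blocks in the rtTA-Dmrt5 columns labelled +Dox are Sox21 at both days and Fabp7 at day 7; red blocks there are 3 of the 6 Slc1a3 probe sets.

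The parental line shows what Dox did to these genes without the transgene at day 7. No member passed: 0 of 24, where 0% of all probe sets passed, and 0 of 24 had an unadjusted p under 0.05 (2323 of 45037 did overall). The smallest adjusted p among the members was 0.947. The difference between the lines' responses passed for 4 of 24 probe sets, of Sox21, Fabp7 and Slc1a3 (2), where 1.04% of all passed. Of the 4, 2 were more positive in rtTA-Dmrt5, as 0.3% of all probe sets were, and 2 more negative, as 0.739% were. The lines also differed among day 7 arrays labelled -Dox, where 6 of 24 passed, 1 higher and 5 lower in rtTA-Dmrt5, and 18.7% of all did, 8.72% higher and 9.95% lower. The effect of Dox alone in the rtTA-Dmrt5 background was not among the measurements.

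Between day 9 and day 7, 4 of 24 probe sets passed in arrays labelled +Dox, where 9.1% of all did, 5.18% higher and 3.92% lower: Fabp7 was higher, and Sox1, Msi1 and Prom1 were lower. In arrays labelled -Dox 1 of 24 passed, Sox1, which was lower, where 7.65% of all did, 4.29% higher and 3.37% lower. The 2 comparisons share no arrays, and their difference equals the difference between the days' Dox responses given above, which passed for Fabp7 alone of the 24.

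A wider list of 29 other neural stem and radial glia genes, with 90 probe sets, also held changes in both directions. At day 7, 3 genes rose and 8 fell. By probe set, 7 of 90 rose and 14 fell, where 1.26% and 1.79% of all did. The falls were led by Nr2e1, the nuclear receptor Tlx of forebrain neural stem cells (-3.52 ± 0.25, adjusted p = 0.000108), the homeobox factor Pax6 (-1.93 ± 0.16), Dach1 (-1.77 ± 0.15) and the POU factor Pou3f2 (-1.49 ± 0.14). Slc1a2, the glial glutamate transporter related to Slc1a3, fell by 1.35 ± 0.19 (adjusted p = 0.00413), the reverse of Slc1a3. Ptprz1, a receptor phosphatase of radial glia (-1.11), Ednrb, an endothelin receptor (-0.50), and Pou3f3 (-0.49) also fell. The rises were the nuclear factor I gene Nfib, which drives radial glia towards gliogenesis (1.24 ± 0.16), the HLH inhibitor Id4 (1.07 ± 0.10) and the zinc finger gene Plagl1 (0.81 ± 0.15). The list's median change was -0.02, against 0.01 over all probe sets.

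At day 9, 7 of these 29 genes rose and 10 fell. By probe set, 12 of 90 rose and 20 fell, where 10.3% and 7.95% of all did. Nr2e1 (-4.46 ± 0.25), Pax6 (-2.15 ± 0.16), Pou3f2 (-1.57), Slc1a2 (-1.51), Dach1 (-1.28), Ptprz1 (-1.26), Ednrb (-0.72) and Pou3f3 (-0.55) were lower again, joined by Zbtb16 (-0.72) and Fgfr3 (-0.36). Nfib rose by 2.41 ± 0.16 (adjusted p = 3.06e-05) and Id4 by 0.74 ± 0.10, with Nfia (0.77), the Notch target Hes1 (0.76), Hopx (0.60), Msi2 (0.47) and Fabp5 (0.46). Msi2 and Fabp5 are relatives of Msi1 and Fabp7, which did not rise. The list's median was -0.07, against -0.02 over all probe sets. In parental cells 0 of the 29 passed, while the lines' responses differed for Nr2e1 (-3.96), Dach1 (-2.11), Pax6 (-1.74), Pou3f2 (-1.57), Nfib (1.25) and Id4 (1.10). The days' responses differed for Nfib alone (1.82 ± 0.28, adjusted p = 0.0284).

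**Figure D4:**
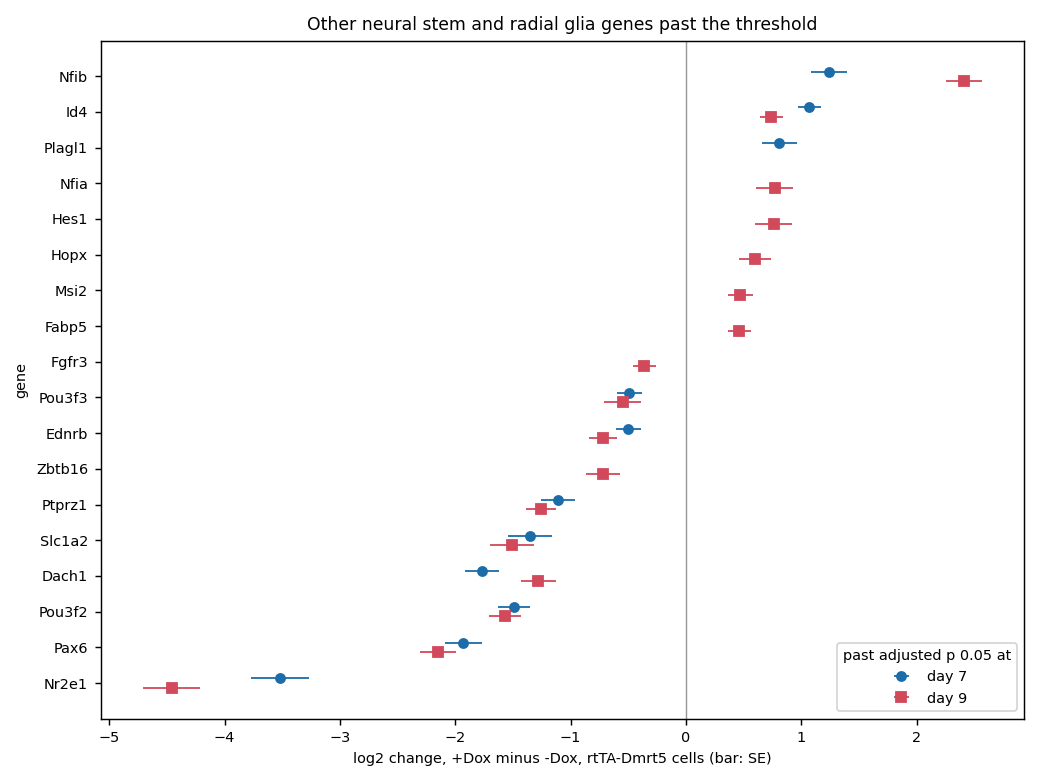
Log2 change in rtTA-Dmrt5 cells, arrays labelled +Dox minus those labelled -Dox (x axis, bar: SE), of the genes of the wider list with a probe set past adjusted p 0.05 (y axis); circles are day 7 and squares day 9, each the probe set with the smallest p, shown where it passed. Nr2e1 is farthest to the left, at -3.52 and -4.46, and Nfib farthest to the right, at 1.24 and 2.41.

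Markers of other cell types also changed. A gene was counted where any of its probe sets passed. Of all probe sets, 3.05% passed at day 7 and 18.3% at day 9. Over gene means, a different measure from this count, 1097 of 18193 genes passed at day 7 and 4518 at day 9. Of 16 neuronal genes, 11 fell and 1 rose at day 7, and 11 fell and 0 rose at day 9. By probe set, 17 of 37 fell at day 7 and 20 at day 9, where 1.79% and 7.95% of all did. Nefl (-1.26), Nhlh1 (-1.67) and Stmn2 (-0.79) were among the day 7 falls. The mean value of the 37 neuronal probe sets was -0.86 and -0.75 in the day 7 arrays labelled +Dox, against -0.25 and -0.24 in those labelled -Dox, and -0.25 to -0.18 against 0.41 to 0.45 at day 9. The neuronal list was thus lower with the +Dox label at both days, as Sox21 was, but the groups were ordered otherwise. It was highest in day 9 arrays labelled -Dox, with the parental arrays at 0.05 to 0.22. Sox21 was highest in the parental arrays. A link between the 2 was not tested.

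Genes of undifferentiated ES cells rose, 4 of 15 at day 7 and 7 of 15 at day 9, with none lower, including Zfp42 (0.95 and 1.29). Surface epithelium genes rose for 5 of 13 at day 7, such as Krt7 (1.45), and for 11 of 13 at day 9, such as Epcam (1.53). Endoderm genes rose for 1 of 10 and 8 of 10, and cell cycle genes for 0 of 11 and 9 of 11. By probe set, 5 and 10 of 25 rose for ES cells at day 7 and day 9, and 6 and 15 of 24 for surface epithelium. For endoderm 3 and 16 of 26 rose, and for the cell cycle 0 and 13 of 20. Of all probe sets, 1.26% rose at day 7 and 10.3% at day 9. In rtTA-Dmrt5 cells, the mean of each of these lists, like Slc1a3, was higher with the +Dox label than with the -Dox label at each day. The parental arrays, the lowest for the brightest Slc1a3 probe set, were also the lowest for the endoderm list, at -0.76 to -0.53. For the surface epithelium list they had -0.41 to -0.17, which overlapped the -0.37 to -0.27 of rtTA-Dmrt5 day 9 arrays labelled -Dox. They were the highest for the ES cell list, at 0.35 to 0.47, and for the cell cycle list, at 0.24 to 0.28. The mean of the 25 ES cell probe sets was -0.32 and -0.30 in day 7 arrays labelled +Dox against -0.70 and -0.62 in those labelled -Dox, and 0.24 to 0.30 against -0.15 to -0.10 at day 9.

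Mesenchymal genes, several of which accompany Vim, were mixed. At day 7, 2 of 13 rose and 2 fell, where Col3a1 fell by 2.79 and Prrx1 rose by 1.29. At day 9, 4 rose and 2 fell. By probe set, 3 of 28 rose and 4 fell at day 7, where 1.26% and 1.79% of all did. At day 9, 7 of 28 rose and 3 fell, where 10.3% and 7.95% of all did. The 28 mesenchymal probe sets averaged -0.13 and -0.10 in day 7 arrays labelled +Dox against -0.06 and 0.01 in those labelled -Dox. At day 9 they averaged 0.06 to 0.26 against -0.06 to -0.04. Of 8 genes of the mature glia list, 0 rose and 3 fell at day 7, and 2 rose and 1 fell at day 9. Olig2 fell by 1.68 at day 7 and rose by 0.92 at day 9 (adjusted p = 0.0132). By probe set, 0 of 20 rose and 6 fell at day 7, where 1.26% and 1.79% of all did. At day 9, 2 of 20 rose and 1 fell, where 10.3% and 7.95% of all did. The list had means of -0.12 in both arrays labelled +Dox against 0.18 and 0.22 at day 7, and -0.16 to -0.07 against -0.11 to -0.09 at day 9. Aqp4, a marker of mature astrocytes, which also use Slc1a3, had a median log2 signal of 2 to 4 at most in its 3 probe sets. Mbp, the other defining marker of mature glia, had a median log2 signal of at least 8 in the brightest of its 8 probe sets. Of 9 neural crest genes, 0 rose and 2 fell at day 7 (Pax3, -1.74), and 3 rose and 3 fell at day 9. By probe set, 0 of 23 rose and 5 fell at day 7, where 1.26% and 1.79% of all did. At day 9, 4 of 23 rose and 8 fell, where 10.3% and 7.95% of all did. The defining markers of the other lists lay in the classes of 4 to 8 or at least 8, and the part of these cell types in the members' changes was not tested.

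As a description of the 12 arrays, with no test and with groups shared by all genes, the named genes whose pattern was most like each member's were looked up by Pearson's r. Sox21 1451835_at was most like Lgr4 (r = 0.971) and Septin6 (r = 0.97). Fabp7 was most like Sncaip (r = 0.971) and Nr2f2 (r = 0.951), and Nr2f2 was also the nearest to Sox3 1435192_at (r = 0.967). Slc1a3 1452031_at was most like Rassf10 (r = 0.987) and Thbs3 (r = 0.978). Sox2 was nearest to Cp (r = 0.973) and Tox3 (r = 0.938), and Vim 1450641_at to Grm4 (r = 0.974) and Pou3f2 (r = 0.967). Sox1 1438729_at was nearest to Cdc25a (r = 0.974), Nes 1449022_at to Atad3a (r = 0.975), Prom1 to Adat2 (r = 0.972) and Msi1 1444306_at to 8430416G17Rik (r = 0.939). Fabp7 and Sox3 thus shared a near neighbour.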

How the data were processed

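The 12 mouse samples were hybridised to Affymetrix arrays after, per the labels' protocols, 5 ng of total RNA was amplified and labelled with biotin with a NuGEN Ovation kit. The authors processed the arrays with RMA of unstated version, per the submitters' processing notes. The deposited values of 45101 probe sets are taken as log2, the scale of RMA, and each probe set is centred, its median over the arrays being 0 within 5e-07. The class of the median signal was read from the spacing of single-precision values. Scanner files, scan dates and batches were not analysed here, and the number of arrays limits the precision.

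Names came from the platform annotation: without 64 controls, 34945 had 1 symbol, 932 several and 9160 none. The gene numbers of 34741 were found in RefSeq (GRCm38.p6), with 0 symbols changed, and all 24 members matched. No genome build is given for the arrays, so the coordinates are RefSeq's alone.

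Limma 3.58.1 (R 4.3.3) was fitted by probe set over all 12 arrays with a mean per group, contrasts, eBayes and Benjamini-Hochberg adjustment over 45037 probe sets. It had been tested on simulated data. Groups came from the line, day and Dox labels. There were 8 comparisons: the responses to Dox of rtTA-Dmrt5 at each day and of rtTA at day 7, the differences of these responses between lines and between days, day 9 against day 7 with and without Dox, and rtTA-Dmrt5 against rtTA without Dox. Alternatives were the replicate number as a block, gene means, a fit of only the groups compared, dim probe sets (median log2 under 4) left out, a further quantile normalization, and each array left out. Because values are centred, the filter on dim probe sets used the recovered class.

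Whether replicate numbers pair the samples is not stated in the labels used here, and the main fit did not pair them. The correlation of replicate deviations between arrays labelled +Dox and -Dox was -0.06 in rtTA-Dmrt5 at day 7. It was 0.14 at day 9 and 0.03 in rtTA. These low values do not settle whether samples shared a culture or a run. The text names every member probe set, any gene of the wider neural stem list past the threshold, up to 4 genes of each other list by smallest p, Dmrta2, and up to 2 genes most like each member. For list genes with several probe sets, the value given is that of the probe set with the smallest p. The members and lists were chosen with earlier results of these data known. Tables and plots were made in Python 3.11.15 (pandas 2.3.3, matplotlib 3.10.9).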

Additional observations from a re-analysis of the deposited data

Results flagged for a closer look

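In 5 probe sets the Dox response at day 7 differed between the lines by a direct test of that difference, rtTA-Dmrt5 minus rtTA. The differences were -1.94 for Sox21 1437059_at (adjusted p = 0.00188), -1.62 for Fabp7 (adjusted p = 0.00188), 1.92 for Slc1a3 1440491_at (adjusted p = 0.02), 1.26 for Slc1a3 1452031_at (adjusted p = 0.00857) and -2.52 for Dmrta2 (adjusted p = 0.036). For Sox21 1437059_at and Fabp7 the call held under all 13 alternatives tried. Slc1a3 1440491_at, a dim probe set, passed under 6 of 12.

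The Dox response of Fabp7 differed between day 9 and day 7 by 1.55 (adjusted p = 0.00807), again by a direct test. It passed under 10 of 13 alternatives. Fabp7 was higher in every parental array (lowest 0.17) than in every rtTA-Dmrt5 array of either label and day (highest 0.14). Day 9 was not measured in the parental line.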

How the results depend on the processing

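Among changes of single member probe sets past the threshold, 339 values were computed under alternatives: 243 kept their direction and call, 95 kept the direction and lost the call, and 1 reversed. The reversed one is Slc1a3 1452031_at between lines without Dox, at -0.04 over the mean of the gene's probe sets. Leaving arrays out accounts for 65 of the 95 losses, and it also lowers power. With only the groups compared fitted, the count of members past the threshold was 5 for the day 7 Dox response (9 in the fit over all arrays), 7 for day 9 (11), 0 for day 9 against day 7 without Dox (1) and 2 with Dox (4); over all probe sets these counts were 775 (1372), 3426 (8230), 1984 (3447) and 1491 (4098), and 72 (288) for the difference between days. That fit ended the calls of Sox2, Sox3, Vim and Sox21 1451835_at at day 7 and of 2 Nes probe sets, Vim and Prom1 at day 9. With arrays quantile normalized again, 2557 probe sets passed at day 7 and 875 (468) for the difference between lines. With the replicate number as a block, 225 passed for the difference between lines, 0 for that between days, where the one member, Fabp7, kept its change of 1.55 (adjusted p = 0.0571 with the block), and 1 (against 0) in the parental line. With dim probe sets left out, 633 passed for the difference between days, and 2 members for day 9 against day 7 without Dox. Over gene means 3 genes passed between lines and 0 for day 9 against day 7 without Dox. With each array left out in turn, members past the threshold numbered 4 to 5 at day 7, 8 to 11 at day 9, 0 in the parental line, 2 to 4 and 0 to 1 for the differences between lines and between days, 0 to 1 and 2 to 4 for day 9 against day 7 without and with Dox, and 1 to 3 between lines without Dox. Over all probe sets the ranges were 496 to 662, 4068 to 7449, 0 to 0, 173 to 322, 5 to 625, 1210 to 1671, 1299 to 3467 and 4100 to 5767. Signal over background is known only as the level class, and 5 member probe sets lie at 2 to 4. The causes of these shifts were not tested.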
